A study of Mus musculus with 24 samples.

Results

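The gene set described here holds 28 genes of cholesterol synthesis, sterol uptake and the control of both by the transcription factor SREBP2. Members were the rows of the deposited liver table whose symbol was on a list of enzymes, regulators and other SREBP2 genes, a rule that itself uses no expression value. The list was, however, chosen with earlier results of these data known. Counts of members beside the share of all genes are therefore descriptions and not an independent test of the set. All 28 of the listed symbols were found among 34945 named genes, and all 28 passed the filter on low values. Polyadenylated RNA of mouse liver was sequenced with its strand kept, and levels are given as gene TPM, each gene's share of the transcripts of a library after correction for transcript length. The 24 libraries form 8 groups of 3. Knockout livers carried a constitutive deletion made with Albumin-Cre, a transgene active in hepatocytes. Whether other liver cells kept the genes was not measured. LFKO livers were FoxO1-/- and lacked the insulin-restrained transcription factor FoxO1, LPKO livers were PPARα-/- and lacked the fatty acid sensing nuclear receptor PPARα, and LFPKO livers were FoxO1-/- and PPARα-/- and lacked both. WT livers were FoxO1lox/lox and PPARα lox/lox, that is, floxed at both genes with no stated Cre. Each genotype was on a high-fat diet (HFD) or a regular diet (RD) for 3 weeks, and all mice were fasted for 4 h. The labels give no age, and they do not say that the replicates of a group came from separate mice, so the spread behind the p-values is that between libraries and may be technical. The question the design poses is how each factor, alone and with the other, bears on hepatic gene expression on either diet.

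Cholesterol is made from acetyl-CoA through mevalonate, farnesyl diphosphate, squalene and lanosterol, and the liver is a main site of this synthesis. SREBP2 is held in the endoplasmic reticulum with its escort SCAP by the INSIG proteins while sterols are plentiful. When sterols fall, SCAP carries SREBP2 to the Golgi, proteases release its active part, and that part binds sterol regulatory elements in the promoters of nearly all enzymes of the pathway, usually with the factors NF-Y and Sp1 bound nearby.

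The promoters of 3 members held the core of a sterol regulatory element in the letters searched, and they are shown because these letters and the neighbouring CCAAT are the sequence through which SREBP2 and NF-Y are known to act. Sequences are from RefSeq on GRCm38.p6, read 5′ to 3′ on the strand of the gene, and run from 250 to 100 bases before the start annotated there. Capitals mark matches to TCACNCCA, the element core, and to CCAAT on either strand, where ATTGG is CCAAT read from the other strand. The Hmgcs1 stretch is chr13:119690101-119690251 on the plus strand, the Msmo1 stretch is chr8:64733678-64733828 on the minus strand, and the Srebf2 stretch is chr15:82147019-82147169 on the plus strand.
Hmgcs1: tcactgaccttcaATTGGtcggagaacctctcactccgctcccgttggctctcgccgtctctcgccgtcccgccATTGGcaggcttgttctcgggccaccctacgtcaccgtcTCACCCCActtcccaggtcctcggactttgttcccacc
Msmo1: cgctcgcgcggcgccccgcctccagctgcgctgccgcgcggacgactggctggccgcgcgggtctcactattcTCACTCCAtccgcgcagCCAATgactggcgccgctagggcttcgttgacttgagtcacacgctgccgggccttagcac
Srebf2: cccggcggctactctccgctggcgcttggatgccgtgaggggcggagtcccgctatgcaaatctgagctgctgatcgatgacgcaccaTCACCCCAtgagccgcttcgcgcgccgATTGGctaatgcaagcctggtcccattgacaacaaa

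The element core began 137 bases before the RefSeq start in Hmgcs1, 177 in Msmo1 and 162 in Srebf2. The genes start elsewhere in the GENCODE M21 annotation of GRCm38, where the core lay 165 bases before the start of Hmgcs1, 74 before that of Srebf2 and 37 inside Msmo1. The nearest CCAAT stood 34, 9 and 19 bases from it in these genes in that order. Windows from 250 bases before to 50 after the start were in the table for 24 members, with none for Fdps, Fdft1, Sqle and Stard4. Of those 24, 3 held TCACNCCA on either strand (12.5%, against 4.97% of 27025 genes). CCAAT was present in 22 members (91.7%, against 41.1% of genes) and GGGCGG, the letters bound by Sp1, in 21 (87.5%, against 38.2%). GTAAACA, the letters of a FoxO site, were in 0 of the 24 windows, against 4.05% of genes. These matches describe letters in a window and say nothing of binding.

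Across the series, Foxo1 reached at most 0.484 TPM in the 12 libraries labelled FoxO1-/- and was at least 4.06 TPM in the other 12. Ppara was 57.5 to 87.3 TPM in the libraries labelled PPARα-/- and 37.1 to 68.8 TPM in the others, so its total level did not check that label. The tissue label was checked on hepatocyte markers (Alb, Ttr, Apoa1, Apob, Serpina1a, Fgb, Cps1 and Tat), which summed to between 39660 and 92950 TPM per library, against 68.0 to 250.8 TPM for 10 Kupffer cell markers and 82.7 to 277.5 TPM for 8 stellate cell markers. The number of reads behind a TPM value is unknown. A lower TPM in bulk liver can come from fewer cells of a type or from less RNA per cell, and these cannot be told apart. Changes are log2 fold changes ± SE of TPM + 1, a scale on which changes of genes with few transcripts come out too small. A gene is called higher or lower at an adjusted p under 0.05 in limma, a linear model with moderated variances, over 10551 tested genes.

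Most members shared their lowest group among the 8. HFD WT livers had the lowest mean of all groups for 24 of 28 members, and for 20 members each of the 3 HFD WT libraries lay below each of the other 21. Over all tested genes, 44.7% had their lowest mean in HFD WT livers and 2.10% had all HFD WT libraries below all others. After scaling by median-of-ratios factors, which removes a common shift between libraries, these were 23 and 18 members, against 12.1% and 0.787% of genes. The highest mean was in RD LPKO livers for 17 members, RD LFPKO livers for 6, RD LFKO livers for 3 and RD WT livers for 2. The share of all genes with their highest mean in each group was not counted. In every genotype more genes were called lower than higher on HFD, so a highest mean on RD is not particular to the members. Summed over the 28 members, HFD livers held 1302 ± 151 TPM in LFKO, 1906 ± 494.5 TPM in LPKO, 1185 ± 43.1 TPM in LFPKO and 636.8 ± 67.0 TPM in WT (mean ± SD, n = 3). RD livers held 2328 ± 155 TPM in LFKO, 2894 ± 493 TPM in LPKO, 2677 ± 152 TPM in LFPKO and 1932 ± 486 TPM in WT. RD WT and both LPKO groups therefore had by far the widest spread between libraries.

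**Figure D1:**
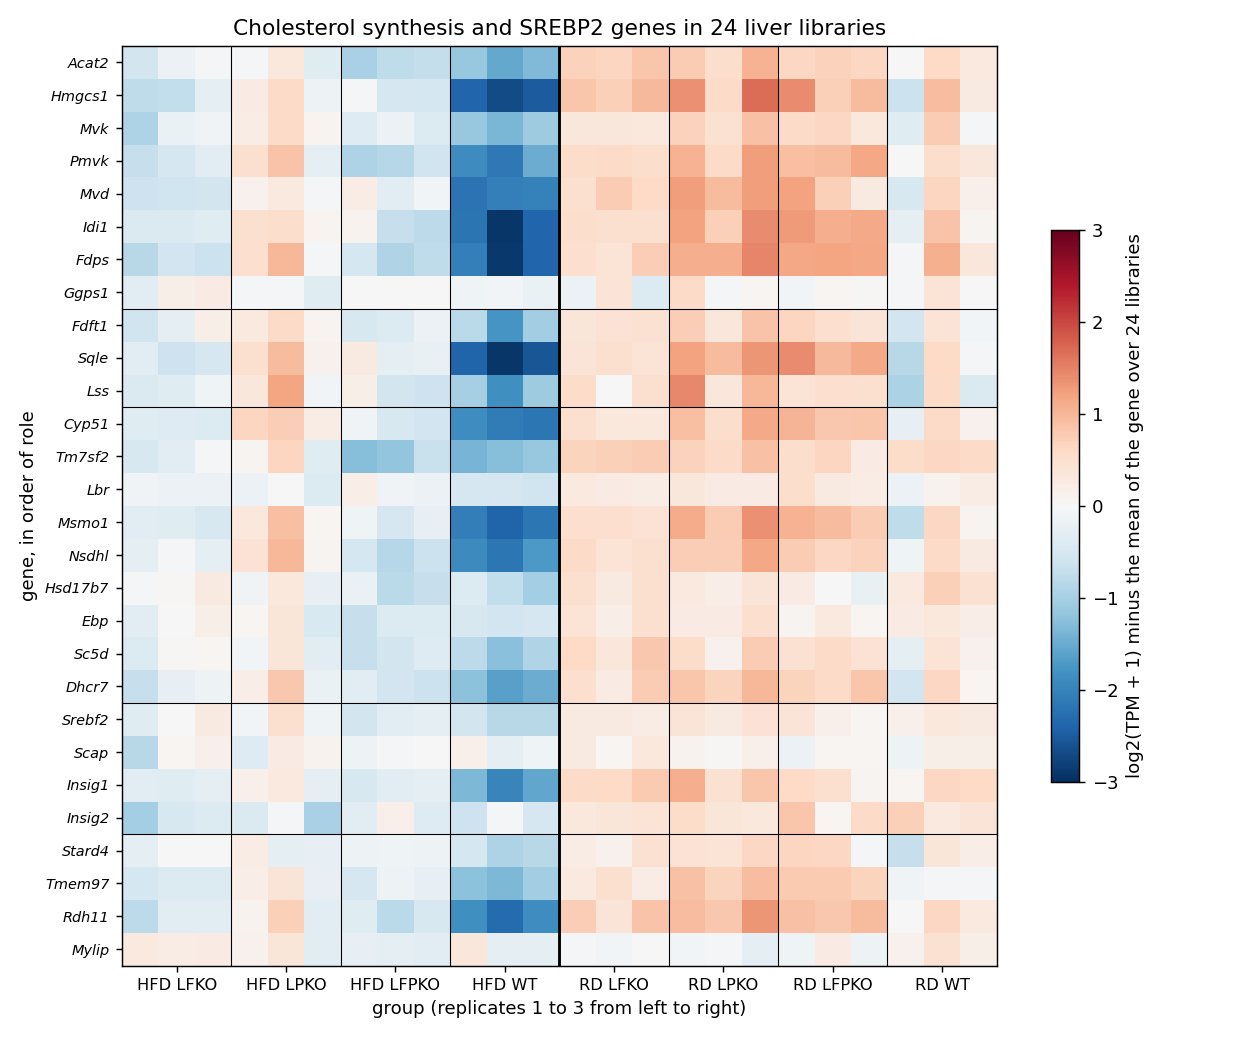
Level of each of the 28 members (rows, ordered by role, lines between roles) in each of the 24 libraries (columns, 3 replicates per group), as log2(TPM + 1) minus the mean of that gene over all libraries, with blue below and red above the mean. The 3 HFD WT columns are the darkest blue for most rows, the RD columns on the right are mostly red, and Ggps1, Scap and Mylip show little of this order.

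Average levels covered a wide range. Sc5d, the lathosterol oxidase, averaged 267 TPM over all libraries and was the most abundant member. The other 5 with an average of 100 TPM or above were Fdps (206 TPM), Msmo1 (147 TPM), Ebp (137 TPM), Idi1 (129 TPM) and Hmgcs1 (123 TPM). Ggps1, Lbr and Mylip averaged below 5 TPM. Sqle had the widest range of the 28, from 3.34 to 86.4 TPM, and Mylip and Scap the narrowest, each with a 2.26-fold ratio of highest to lowest library.

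On the high-fat diet, most of the pathway was higher in each knockout than in HFD WT livers. In LFKO livers 21 of 28 members were called higher and none lower, where 13.5% of all tested genes were called. In LPKO livers 21 were called higher, where 4.73% of genes were called. In LFPKO livers 15 were called higher, where 3.09% of genes were called. The median change of the 28 members was 0.99 in LFKO, 1.51 in LPKO and 0.89 in LFPKO livers, while the median of all tested genes was 0.21, 0.11 and 0.071 in that order. The share of all genes called in LFKO livers rested on single libraries, with 1420 genes called as reported, 201 without HFD WT replicate 2 and 3500 without HFD LFKO replicate 1, where 14 and 22 members were called. In LPKO livers 499 genes were called as reported, 198 without HFD WT replicate 2 and 892 without HFD LPKO replicate 3. These comparisons share the 3 HFD WT libraries, so their likeness is not independent.

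Of the 8 enzymes from acetyl-CoA to farnesyl diphosphate and its first branch, 7 were called higher in LFKO, 7 in LPKO and 6 in LFPKO livers. Hmgcs1, which makes HMG-CoA and opens the mevalonate branch, had 55.2, 56.7 and 78.3 TPM in HFD LFKO livers, 112, 143 and 85.7 TPM in HFD LPKO livers and 91.8, 66.6 and 65.1 TPM in HFD LFPKO livers, against 17.4, 14.0 and 16.0 TPM in HFD WT livers. Every knockout library was above every HFD WT library, and the log2 fold changes were 1.92 ± 0.31, 2.74 ± 0.31 and 2.15 ± 0.31 in LFKO, LPKO and LFPKO livers (limma adjusted p = 0.00127, 9.6e-06 and 0.00019). Idi1, the isomerase that interconverts the 5-carbon isoprenoid units, had 75.2, 76.1 and 79.5 TPM in LFKO, 143, 147 and 109 TPM in LPKO and 110.2, 63.4 and 59.4 TPM in LFPKO livers, against 21.4, 12.8 and 18.9 TPM in WT livers. Fdps, the farnesyl diphosphate synthase, had 88.5, 106 and 100.5 TPM in LFKO, 225, 314 and 151 TPM in LPKO and 109, 83.8 and 92.4 TPM in LFPKO livers, against 37.5, 20.5 and 29.5 TPM in WT livers. For both genes LPKO livers had the highest mean, and no knockout library overlapped WT. Their changes in LPKO livers were 2.86 ± 0.25 for Idi1 (limma adjusted p = 5.24e-07) and 2.92 ± 0.25 for Fdps (limma adjusted p = 4.69e-07). In LFKO and LFPKO livers the changes were 2.09 ± 0.25 and 2.04 ± 0.25 for Idi1, and 1.76 ± 0.25 and 1.70 ± 0.25 for Fdps.

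Mvd, the decarboxylase between the phosphorylated mevalonates and Idi1, had lower levels than these 3 enzymes, with 4.73, 4.81 and 5.07 TPM in LFKO, 8.71, 9.92 and 7.57 TPM in LPKO and 9.39, 6.08 and 7.35 TPM in LFPKO livers, against 0.922, 1.14 and 1.17 TPM in WT livers. It was 2.04 ± 0.23 higher in LFPKO livers (limma adjusted p = 7.36e-06). The kinases Mvk and Pmvk were called higher in all 3 knockouts, with changes of 0.78 ± 0.23, 1.49 ± 0.23 and 0.87 ± 0.23 for Mvk and 1.33 ± 0.23, 2.18 ± 0.23 and 1.04 ± 0.23 for Pmvk in LFKO, LPKO and LFPKO livers. The Mvk call in LFKO livers was lost after median-of-ratios scaling. That in LFPKO livers (limma adjusted p = 0.0376) was lost when any single compared library was left out. Acat2, the thiolase that joins the first 2 acetyl-CoA units, was called higher in LFKO (1.07 ± 0.18) and LPKO livers (1.30 ± 0.18), with a value of 0.51 ± 0.18 in LFPKO livers that did not pass (limma adjusted p = 0.145). Ggps1, which turns farnesyl diphosphate into the lipid anchor of prenylated proteins, was not called in any of the 19 comparisons made here. Its HFD means were 4.58 ± 1.11 TPM in LFKO, 3.88 ± 0.608 TPM in LPKO, 4.38 ± 0.0539 TPM in LFPKO and 3.89 ± 0.203 TPM in WT livers (SD, n = 3).

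Sqle, the squalene epoxidase and a controlled step of the sterol branch, showed the largest change of any member in each HFD knockout on the log2(TPM + 1) scale. That scale makes the changes of Mvd, at 0.922 to 1.172 TPM in HFD WT livers, too small. Sqle had 25.3, 20.1 and 22.1 TPM in LFKO, 44.5, 62.5 and 34.6 TPM in LPKO and 38.0, 25.9 and 26.7 TPM in LFPKO livers, against 5.18, 3.34 and 4.50 TPM in WT livers. No knockout library was below 20.1 TPM and no HFD WT library above 5.18 TPM. The changes were 2.15 ± 0.26 in LFKO (limma adjusted p = 6.26e-05), 3.15 ± 0.26 in LPKO (limma adjusted p = 1.97e-07) and 2.54 ± 0.26 in LFPKO livers (limma adjusted p = 3.11e-06). Fdft1, the squalene synthase, was called higher in LFKO (0.98 ± 0.24) and LPKO livers (1.53 ± 0.24) and missed the threshold in LFPKO livers (0.86 ± 0.24, limma adjusted p = 0.0567). Lss, the cyclase that makes lanosterol, passed in LPKO livers (1.78 ± 0.36) and had values of 0.995 ± 0.36 and 0.98 ± 0.36 in LFKO and LFPKO livers that did not pass.

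Among the enzymes that turn lanosterol into cholesterol, Cyp51, the lanosterol demethylase, had the smallest adjusted p of all members in HFD LPKO livers. It had 39.4, 38.6 and 37.9 TPM in LFKO, 79.9, 85.6 and 59.8 TPM in LPKO and 47.4, 36.1 and 33.9 TPM in LFPKO livers, against 13.2, 11.2 and 10.5 TPM in WT livers. The changes were 1.66 ± 0.18 in LFKO (limma adjusted p = 2.79e-05), 2.58 ± 0.18 in LPKO (limma adjusted p = 7.56e-08) and 1.66 ± 0.18 in LFPKO livers (limma adjusted p = 7.03e-06). All knockout libraries were above all WT libraries, and all LPKO libraries above all LFKO and LFPKO libraries. Msmo1, the methylsterol oxidase, had 97.7, 94.4 and 87.2 TPM in LFKO, 152, 226 and 126 TPM in LPKO and 111, 85.8 and 102 TPM in LFPKO livers, against 27.8, 22.1 and 26.2 TPM in WT livers. Nsdhl, the dehydrogenase that acts with Msmo1 to remove methyl groups, had 36.3, 43.0 and 36.5 TPM in LFKO, 60.3, 89.6 and 46.6 TPM in LPKO and 30.4, 24.1 and 27.8 TPM in LFPKO livers, against 11.0, 9.15 and 12.8 TPM in WT livers. Neither gene overlapped between any knockout group and WT. Their changes in LFKO, LPKO and LFPKO livers were 1.84 ± 0.25, 2.64 ± 0.25 and 1.93 ± 0.25 for Msmo1, and 1.73 ± 0.19, 2.43 ± 0.19 and 1.25 ± 0.19 for Nsdhl (limma adjusted p at most 0.000357).

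The other enzymes of this stretch had smaller changes. Dhcr7, the last reductase on the route through dehydrocholesterol, was called higher in all 3 knockouts (1.09 ± 0.25 in LFKO, 1.72 ± 0.25 in LPKO, 0.94 ± 0.25 in LFPKO livers). Its call in LFPKO livers (limma adjusted p = 0.0428) was lost when any single compared library was left out. The Dhcr7 call in LFKO livers was lost without HFD WT replicate 2 or HFD LFKO replicate 2 or 3. Sc5d was called in LFKO (0.87 ± 0.20) and LPKO livers (0.97 ± 0.20), as was Hsd17b7, the ketone reductase that works with Nsdhl (0.81 ± 0.18 in LFKO, 0.71 ± 0.18 in LPKO livers). Both Hsd17b7 calls were lost after median-of-ratios scaling. In LFPKO livers the values of Sc5d and Hsd17b7 were 0.44 ± 0.20 and 0.16 ± 0.18, neither past the threshold. Tm7sf2, a sterol reductase that follows Cyp51, had 52.1, 57.4 and 70.3 TPM in LFKO, 77.6, 115 and 56.7 TPM in LPKO and 29.9, 31.6 and 45.8 TPM in LFPKO livers, against 27.3, 29.5 and 32.7 TPM in WT livers. LFPKO livers overlapped WT for this gene and both single knockouts did not. It was called in LFKO (0.98 ± 0.19) and LPKO livers (1.39 ± 0.19), with 0.23 ± 0.19 in LFPKO livers. Lbr, a nuclear envelope protein with the same reductase activity, was called in LFPKO livers alone (0.51 ± 0.13, limma adjusted p = 0.0276), at a level of 2.74 ± 0.515 TPM, against 1.62 ± 0.0891 TPM in WT livers (SD, n = 3). Its values in LFKO and LPKO livers were 0.38 ± 0.13 and 0.34 ± 0.13, in the same direction. The Lbr call in LFPKO livers was lost without any single HFD WT library and without HFD LFPKO replicate 1 or 2. Ebp, the sterol isomerase, was not called in any knockout (0.45 ± 0.16 in LFKO, 0.50 ± 0.16 in LPKO, 0.012 ± 0.16 in LFPKO livers).

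Within the regulators, Insig1, itself an SREBP2 target, followed the enzymes and Scap and Insig2 did not. Insig1 had 66.8, 64.6 and 68.6 TPM in LFKO, 93.4, 103 and 68.2 TPM in LPKO and 59.4, 65.4 and 69.4 TPM in LFPKO livers, against 32.3, 20.5 and 27.5 TPM in WT livers. All 9 knockout libraries were above all 3 WT libraries, with changes of 1.31 ± 0.19, 1.69 ± 0.19 and 1.27 ± 0.19 (limma adjusted p at most 0.000514). Srebf2, which encodes SREBP2, had 10.6, 14.0 and 17.1 TPM in LFKO, 13.2, 19.9 and 12.7 TPM in LPKO and 9.25, 11.1 and 11.5 TPM in LFPKO livers, against 9.19, 7.37 and 7.37 TPM in WT livers. It was called in LFKO (0.71 ± 0.16, limma adjusted p = 0.00905) and LPKO livers (0.84 ± 0.16, limma adjusted p = 0.00297), with 0.37 ± 0.16 in LFPKO livers (limma adjusted p = 0.274). Scap, the escort, had HFD means of 37.7 ± 12.9 TPM in LFKO, 41.9 ± 9.32 TPM in LPKO, 39.8 ± 2.26 TPM in LFPKO and 39.2 ± 6.39 TPM in WT livers, and was not called in any comparison. Insig2, the INSIG protein whose gene is known to be active in fasted liver, averaged 43.5 ± 9.74 TPM in LFKO, 48.9 ± 15.2 TPM in LPKO, 59.5 ± 13.2 TPM in LFPKO and 51.5 ± 11.9 TPM in WT livers, and was not called in any knockout against WT.

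**Figure D2:**
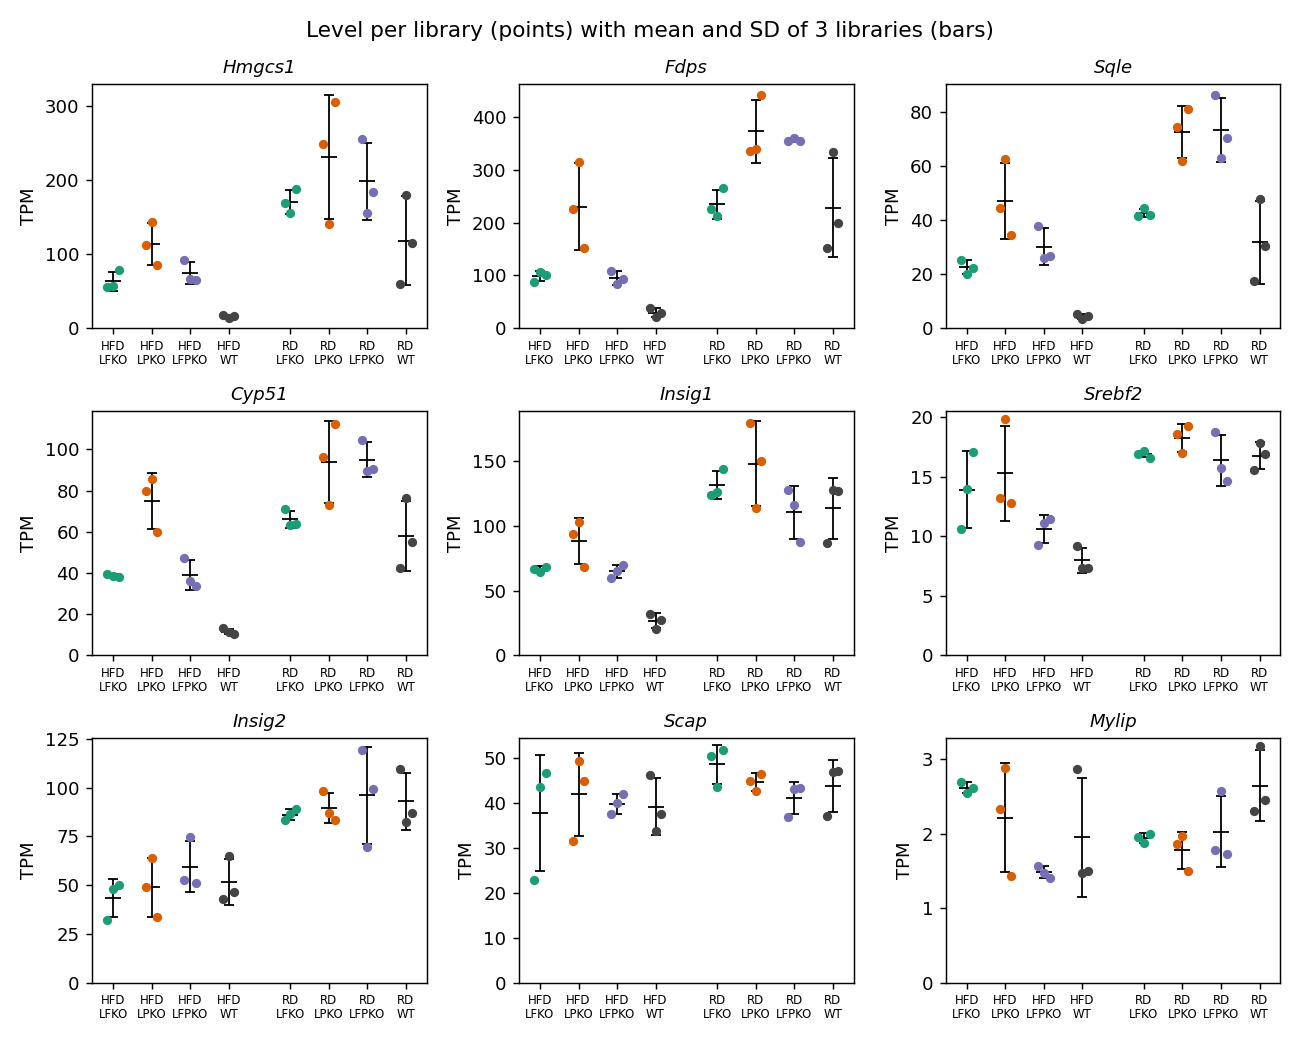
TPM of 9 members in each library (points), with the mean (line) and SD (bars) of the 3 libraries of a group, high-fat diet groups on the left and regular diet groups on the right, each with WT last. For Hmgcs1, Fdps, Sqle, Cyp51 and Insig1 the HFD WT points lie below all others, with Sqle at most 5.18 TPM in HFD WT libraries and at least 17.4 TPM elsewhere, whereas Scap and Mylip show no such gap.

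Of the 4 transport, uptake and other target genes, Tmem97 and Rdh11 rose in all 3 HFD knockouts. Tmem97, a sterol-binding protein of the endoplasmic reticulum, had 49.8, 55.0 and 54.2 TPM in LFKO, 83.2, 96.2 and 61.6 TPM in LPKO and 50.8, 65.5 and 61.7 TPM in LFPKO livers, against 30.4, 28.2 and 34.7 TPM in WT livers. Rdh11, a retinal reductase regulated by SREBPs, had 12.3, 17.4 and 17.4 TPM in LFKO, 23.4, 36.4 and 16.9 TPM in LPKO and 16.6, 12.0 and 15.3 TPM in LFPKO livers, against 5.37, 3.62 and 5.22 TPM in WT livers. Neither gene overlapped with WT, and the changes in LFKO, LPKO and LFPKO livers were 0.75 ± 0.13, 1.32 ± 0.13 and 0.91 ± 0.13 for Tmem97 and 1.54 ± 0.23, 2.16 ± 0.23 and 1.45 ± 0.23 for Rdh11 (limma adjusted p at most 0.00246). Stard4, a cytosolic sterol carrier, was called in LFKO livers (0.66 ± 0.22, limma adjusted p = 0.0482), with 0.67 ± 0.22 in LPKO and 0.62 ± 0.22 in LFPKO livers. The Stard4 call was lost after median-of-ratios scaling. Mylip, a ubiquitin ligase that directs lipoprotein receptors to degradation and is induced by the sterol sensor LXR, was not called against HFD WT in any knockout (0.33 ± 0.17 in LFKO, 0.13 ± 0.17 in LPKO, -0.21 ± 0.17 in LFPKO livers).

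**Figure D3:**
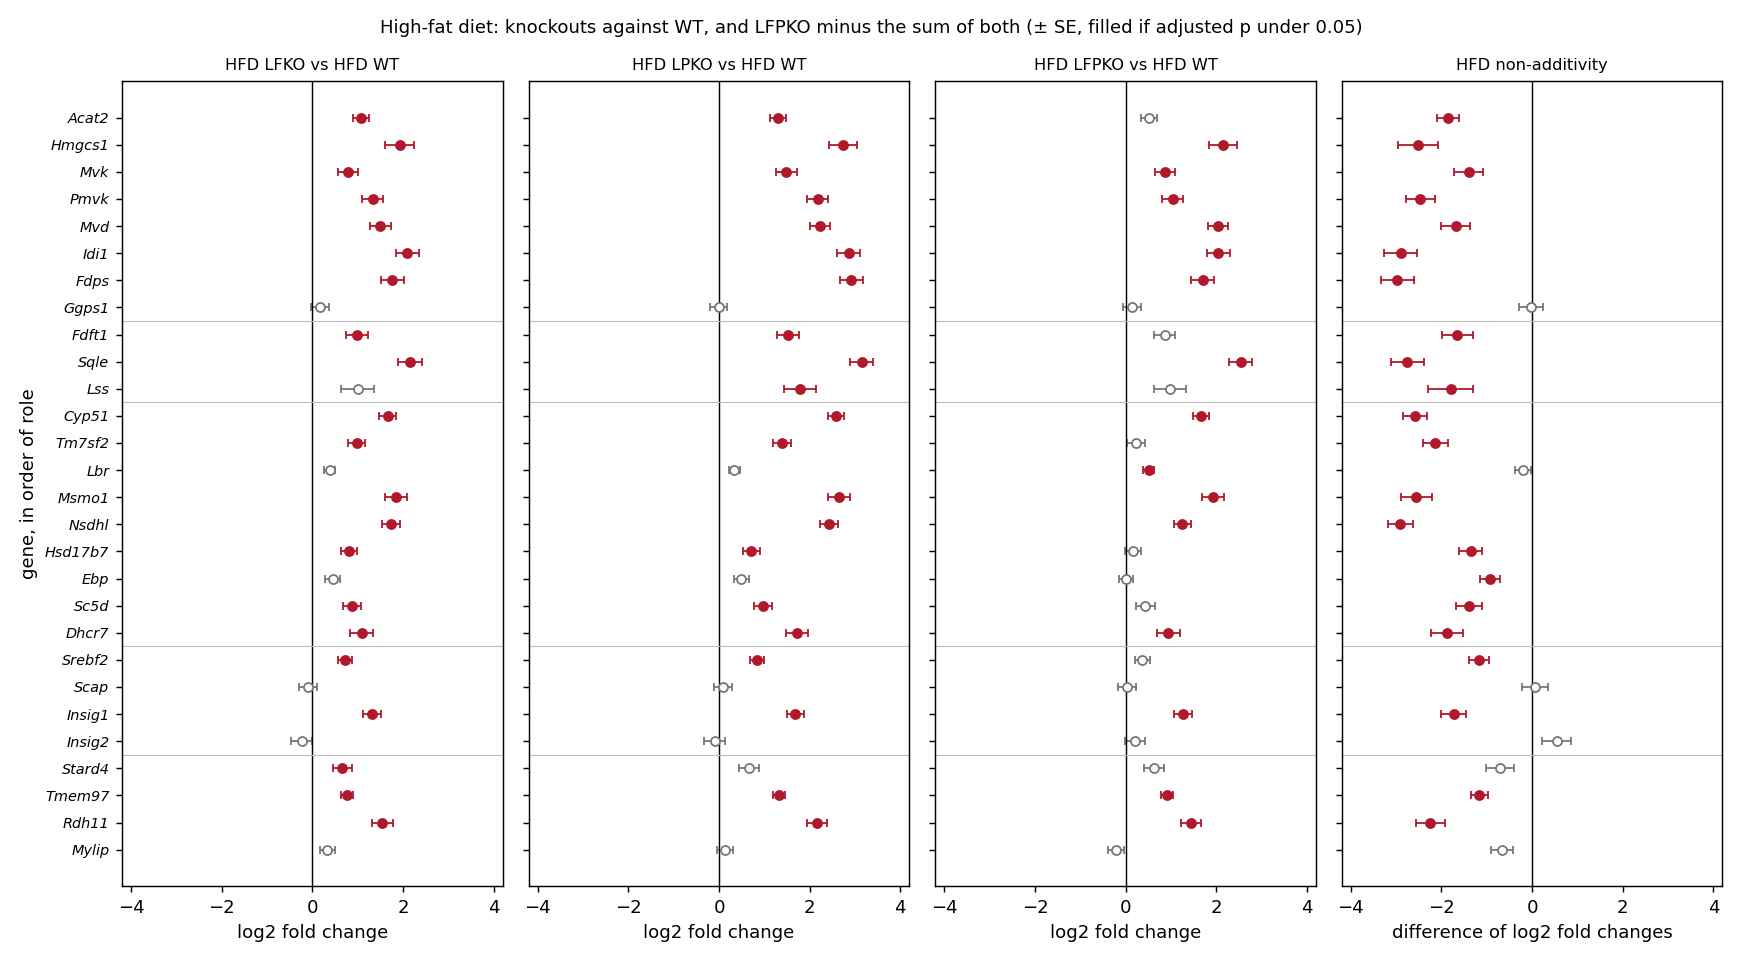
Log2 fold change ± SE of each member for HFD LFKO, LPKO and LFPKO livers against HFD WT livers, and in the right panel the difference between the LFPKO change and the sum of the LFKO and LPKO changes, with filled points where the limma adjusted p is under 0.05. Filled points lie right of 0 in the first 3 panels (21, 21 and 15 members) and left of 0 in the last (22 members).

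On other scales the HFD counts of LPKO and LFPKO livers were close to these, and the count of LFKO livers was lower. Transcripts of the major urinary protein (Mup) genes and the mitochondrial genome, 35 genes, took 28.4% to 41.1% of TPM in HFD LFKO, 35.0% to 46.0% in HFD LPKO, 39.1% to 50.1% in HFD LFPKO and 42.3% to 49.8% in HFD WT libraries. With these transcripts left out and TPM rescaled, 16, 20 and 17 members were called higher in LFKO, LPKO and LFPKO livers, where 3.81%, 6.02% and 5.35% of genes were called. After rescaling by median-of-ratios factors, the counts were 18, 20 and 16, where 4.10%, 6.83% and 5.35% of all genes were called. On that scale the median of all genes was within 0.01 of 0 in each knockout and the members' medians were 0.76, 1.39 and 0.81. In LFKO livers 24 members had all 3 libraries above all 3 WT libraries, as had 24.6% of all genes, in LPKO livers 24 members and 16.3% of genes, and in LFPKO livers 22 members and 11.1% of genes.

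Deleting both factors gave less than the sum of the 2 single deletions on the high-fat diet. A term for the departure from additivity, the LFPKO level minus both single knockout levels plus the WT level, was called below 0 for 22 of 28 members, where 11.2% of all genes were called. The median departure of the members was -1.71, while that of all genes was -0.25. The lowest values were those of Fdps (-2.97 ± 0.36, limma adjusted p = 0.00017), Nsdhl (-2.91 ± 0.27, limma adjusted p = 5.32e-06) and Idi1 (-2.90 ± 0.36, limma adjusted p = 0.000188). Cyp51 had -2.58 ± 0.26 (limma adjusted p = 1.17e-05) and Tm7sf2 had -2.14 ± 0.27. The 6 members that were not called were Ggps1 (-0.023 ± 0.27), Lbr (-0.21 ± 0.18), Scap (0.059 ± 0.28), Insig2 (0.54 ± 0.32), Stard4 (-0.71 ± 0.31) and Mylip (-0.67 ± 0.24). This term contains the HFD WT libraries with a positive sign, so the low HFD WT levels enter it as they enter each single-knockout comparison.

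Set directly against the single knockouts, HFD LFPKO livers had lower levels than LPKO livers for part of the pathway. Against LPKO livers 5 of 28 members were called lower, where 0.351% of genes were called, and the median was -0.60. The smallest adjusted p were those of Nsdhl (-1.18 ± 0.19, limma adjusted p = 0.00876) and Tm7sf2 (-1.16 ± 0.19, limma adjusted p = 0.00876), followed by Cyp51 (-0.92 ± 0.18, limma adjusted p = 0.0312), Pmvk (-1.14 ± 0.23, limma adjusted p = 0.0325) and Fdps (-1.21 ± 0.25, limma adjusted p = 0.0404). Pmvk, the phosphomevalonate kinase, had 15.9, 16.7 and 20.3 TPM in LFPKO, against 43.5, 57.2 and 25.1 TPM in LPKO livers. In all 5 genes every LFPKO library was below every LPKO library. This held for 13 members and 5.88% of all genes, while 1 member and 3.36% of genes had every LFPKO library above. HFD LFPKO means were below HFD LPKO means for 25 members. The share of all genes was not counted, and their median change was -0.038. The count of 5 called members was 2 without HFD LPKO replicate 1 or 2, 10 without HFD LPKO replicate 3, 3 without HFD LFPKO replicate 1, 0 without HFD LFPKO replicate 2, 2 with no filter and 0 with the 2 groups alone in the fit.

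Against HFD LFKO livers, 4 members were called lower in HFD LFPKO livers, where 10.6% of all genes were called, a share of members near that background. They were Tm7sf2 (-0.74 ± 0.19), Hsd17b7 (-0.65 ± 0.18), Acat2 (-0.56 ± 0.18) and Mylip (-0.54 ± 0.17, limma adjusted p at most 0.0481). Hsd17b7 had 13.8, 8.72 and 9.42 TPM in LFPKO, against 15.1, 16.4 and 19.5 TPM in LFKO livers, and Mylip had 1.57, 1.48 and 1.41 TPM in LFPKO, against 2.70, 2.55 and 2.61 TPM in LFKO livers, without overlap in either gene. The members' median was -0.044 as deposited and 0.11 after median-of-ratios scaling, where the median of all genes was -0.13 and 0.0030. The count was 1 without HFD LFKO replicate 2 or HFD LFPKO replicate 1 or 3, and 0 without HFD LFKO replicate 3 or HFD LFPKO replicate 2. It was 2 after median-of-ratios scaling, 1 with no filter and 0 with the 2 groups alone.

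On the high-fat diet members were called lower than on the regular diet in every genotype, and none was called higher. In LFKO livers 19 of 28 members were called lower, where 9.45% of all genes were called, in LPKO livers 11 (18.1% of genes) and in LFPKO livers 23 (26.3% of genes). In WT livers 25 were called lower, where 30.8% of genes were called, 111 higher and 3139 lower. The members' medians were -0.77 in LFKO, -0.57 in LPKO, -0.95 in LFPKO and -1.40 in WT livers. The medians of all genes were themselves below 0, at -0.11 in LFKO, -0.22 in LPKO, -0.23 in LFPKO and -0.29 in WT livers. After median-of-ratios scaling these were within 0.02 of 0, the calls over all genes in WT livers split into 468 higher and 368 lower, and 14, 3, 17 and 20 members were called lower in LFKO, LPKO, LFPKO and WT livers, with medians of -0.63, -0.33, -0.69 and -1.07. Over all genes 10.4%, 6.47%, 13.2% and 7.94% were called on that scale, so that the 3 members in LPKO livers lay near the background.

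On the log2(TPM + 1) scale the diet difference in WT livers was largest for Fdps, which had 37.5, 20.5 and 29.5 TPM on HFD, against 153, 334 and 199 TPM on RD (-2.89 ± 0.25, limma adjusted p = 1.04e-06). Mvd had 0.922, 1.135 and 1.172 TPM on HFD, against 5.364, 12.95 and 8.904 TPM on RD, levels at which this scale makes a change too small. Cyp51 had 13.2, 11.2 and 10.5 TPM on HFD, against 42.5, 76.3 and 55.3 TPM on RD (-2.19 ± 0.18, limma adjusted p = 7.27e-07). Nsdhl had 11.0, 9.15 and 12.8 TPM on HFD, against 40.8, 67.0 and 53.3 TPM on RD (-2.17 ± 0.19, limma adjusted p = 1.04e-06). In each of these genes the 2 diets did not overlap, and the RD WT libraries were far more scattered than the HFD WT libraries. Hmgcs1 had 17.4, 14.0 and 16.0 TPM on HFD, against 59.9, 179.9 and 115 TPM on RD (-2.69 ± 0.31, limma adjusted p = 1.39e-05). Insig1 had 32.3, 20.5 and 27.5 TPM on HFD, against 86.5, 128 and 126 TPM on RD (-2.05 ± 0.19, limma adjusted p = 1.73e-06). Srebf2 had 9.19, 7.37 and 7.37 TPM on HFD, against 15.5, 17.8 and 16.9 TPM on RD (-0.99 ± 0.16, limma adjusted p = 0.000408). In these genes too no HFD WT library reached an RD WT library. All 3 squalene and lanosterol enzymes and all 9 enzymes from lanosterol to cholesterol were called lower in WT livers. Ggps1, Scap and Mylip were the 3 members not called (-0.25 ± 0.19, -0.16 ± 0.20 and -0.33 ± 0.17).

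In the knockouts the members' medians were nearer to 0, and the tests of that difference between genotypes are the interactions given further on. In LFKO livers Hmgcs1 had 55.2, 56.7 and 78.3 TPM on HFD, against 169, 155 and 188 TPM on RD (-1.43 ± 0.31, limma adjusted p = 0.00808). Fdps had 88.5, 106 and 100.5 TPM on HFD, against 225, 212 and 266 TPM on RD in these livers (-1.24 ± 0.25, limma adjusted p = 0.00533). The smallest adjusted p among members was that of Tmem97, with 49.8, 55.0 and 54.2 TPM on HFD, against 89.5, 101 and 84.9 TPM on RD (-0.78 ± 0.13, limma adjusted p = 0.00179). The 2 diets did not overlap in any of these 3 genes. The LFKO count of 19 was 9 to 12 without RD LFKO replicate 1, 2 or 3 or HFD LFKO replicate 1 or 2, and 11 with no filter.

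In LPKO livers Cyp51 had 79.9, 85.6 and 59.8 TPM on HFD, against 96.2, 73.0 and 112 TPM on RD, overlapping groups with a value of -0.31 ± 0.18 that was not called. Fdps had 225, 314 and 151 TPM on HFD, against 336, 340.1 and 442 TPM on RD, without overlap and just past the threshold (-0.74 ± 0.25, limma adjusted p = 0.0472). Tmem97 had 83.2, 96.2 and 61.6 TPM on HFD, against 134, 116 and 139 TPM on RD (-0.70 ± 0.13, limma adjusted p = 0.00241). Of the 9 enzymes after lanosterol, Tm7sf2 and Lbr were called lower in LPKO livers. The LPKO count of 11 was 4 and 5 without RD LPKO replicates 1 and 3, 18 without HFD LPKO replicate 2, 3 without HFD LPKO replicate 3, 7 with no filter and 6 with the 2 groups alone.

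In LFPKO livers the largest diet difference was that of Fdps, with 109, 83.8 and 92.4 TPM on HFD, against 355, 361 and 354 TPM on RD (-1.91 ± 0.25, limma adjusted p = 9.03e-05). Acat2 had 13.8, 16.2 and 16.8 TPM on HFD, against 43.9, 45.9 and 43.9 TPM on RD (-1.46 ± 0.18, limma adjusted p = 3.77e-05). Tm7sf2 had 29.9, 31.6 and 45.8 TPM on HFD, against 106, 116 and 87.0 TPM on RD (-1.52 ± 0.19, limma adjusted p = 5.71e-05). None of the 3 genes overlapped between diets. The 5 members not called were Ggps1, Lss (-0.79 ± 0.36), Scap, Stard4 (-0.55 ± 0.22) and Mylip.

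Insig2 was called lower on HFD in all 4 genotypes, with changes of -0.99 ± 0.23 in LFKO, -0.90 ± 0.23 in LPKO, -0.67 ± 0.23 in LFPKO and -0.85 ± 0.23 in WT livers. Its libraries had 42.9, 65.1 and 46.5 TPM in HFD WT, against 109.6, 82.3 and 87.2 TPM in RD WT livers. After median-of-ratios scaling the changes of Insig2 were -0.86, -0.65, -0.42 and -0.49 in that order, and the call was kept in LFKO livers (limma adjusted p = 0.021) and lost in the other 3 genotypes (limma adjusted p = 0.0895, 0.236 and 0.199). On that scale the other calls lost in WT livers were those of Lss, Lbr, Ebp and Stard4, and Lbr was not called in any genotype.

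**Figure D4:**
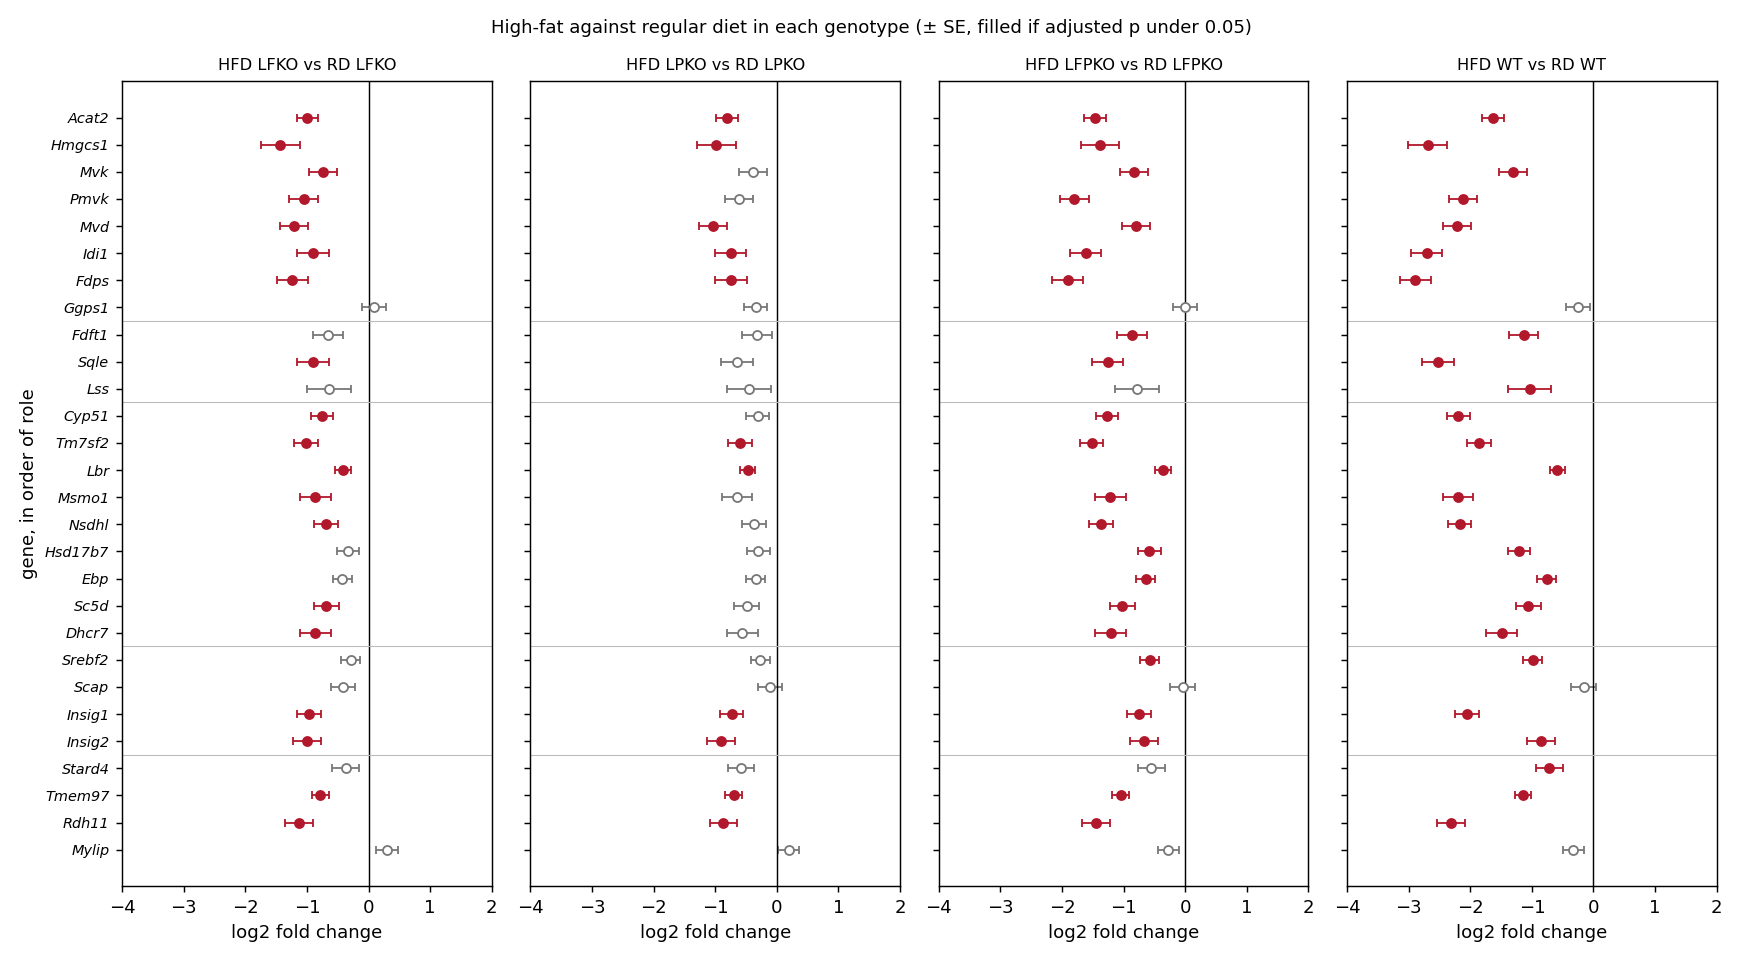
Log2 fold change ± SE of each member on the high-fat diet against the regular diet in LFKO, LPKO, LFPKO and WT livers, with filled points where the limma adjusted p is under 0.05. The points lie farthest left in WT livers, where 25 members are called and Fdps reaches -2.89, and nearest to 0 in LPKO livers, where 11 are called.

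Markers of other cell types and the most abundant transcripts also differed between diets in WT livers. Of 8 stellate cell markers, 7 were called lower on HFD in WT livers, where 30.8% of all genes were called. After median-of-ratios scaling 4 were, where 836 genes were called in all. The summed level of the markers was 106.8 ± 21.9 TPM in HFD WT, against 224 ± 47.1 TPM in RD WT livers. In HFD LFKO livers 3 of the 8 were called higher than in HFD WT, where 13.5% of genes were called, and none after that scaling. The sums were 178 ± 10.3 TPM in HFD LFKO, 156 ± 30.5 TPM in HFD LPKO and 125 ± 20.8 TPM in HFD LFPKO livers. Among hepatocyte markers, Alb, Apob and Ttr were called lower on HFD in WT livers, and Alb was called higher in HFD LFKO than in HFD WT livers. The transcripts of the Mup genes and the mitochondrial genome took 42.3% to 49.8% of TPM in HFD WT, against 30.5% to 31.5% in RD WT libraries. Without those transcripts 10, 3, 14 and 21 members were called lower on HFD in LFKO, LPKO, LFPKO and WT livers, where 9.73%, 6.69%, 11.8% and 7.53% of genes were called. Of 10 tested clock genes, which bear on the time of harvest, Clock (-0.53 ± 0.14) and Nr1d1 (-0.96 ± 0.31) were called lower on HFD in WT livers, Nr1d1 was called lower in LPKO than in WT livers on HFD (-1.10 ± 0.31), and limma called 0 in HFD LFKO or HFD LFPKO livers (1 and 0 at an unadjusted p under 0.05). The part of the stellate, hepatocyte and clock genes in the results was not tested.

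On the regular diet fewer members were called in each knockout. In RD LPKO livers 6 of 28 members were called higher than in RD WT livers, where 5.85% of all genes were called, and the median was 0.59, against 0.045 for all genes. In RD LFPKO livers 5 were called higher, where 7.45% of genes were called, with a median of 0.45. In RD LFKO livers limma called 0 members (5 at an unadjusted p under 0.05), where 1.67% of genes were called, with a median of 0.26. Idi1, Sqle, Cyp51, Msmo1 and Tmem97 were called in both RD LPKO and RD LFPKO livers, and Mvd in RD LPKO livers. The 3 comparisons share the RD WT libraries.

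Tmem97 had the smallest adjusted p of the members in both comparisons, and its RD WT libraries were close together. It had 89.5, 101 and 84.9 TPM in RD LFKO, 134, 116 and 139 TPM in RD LPKO and 126, 126 and 117 TPM in RD LFPKO livers, against 67.3, 71.2 and 70.8 TPM in RD WT livers. It was called in LPKO (0.88 ± 0.13, limma adjusted p = 0.000289) and LFPKO livers (0.81 ± 0.13, limma adjusted p = 0.000515), and its value in LFKO livers was 0.39 ± 0.13. These calls of Tmem97 held under every alternative tried. Sqle had 41.6, 44.4 and 42.0 TPM in RD LFKO, 74.6, 62.0 and 81.1 TPM in RD LPKO and 86.4, 63.0 and 70.5 TPM in RD LFPKO livers, against 17.4, 48.0 and 30.3 TPM in RD WT livers. It was called in LPKO (1.27 ± 0.26, limma adjusted p = 0.00432) and LFPKO livers (1.28 ± 0.26, limma adjusted p = 0.00342). For Sqle, RD LFKO libraries lay inside the range of RD WT libraries and the other knockout libraries above it.

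Msmo1 had 173, 173 and 164 TPM in RD LFKO, 263, 206 and 312 TPM in RD LPKO and 251, 236 and 208 TPM in RD LFPKO livers, against 70.9, 186 and 128 TPM in RD WT livers. It was called in LPKO (1.10 ± 0.25, limma adjusted p = 0.00855) and LFPKO livers (0.95 ± 0.25, limma adjusted p = 0.0199). Mvd had 20.1, 16.2 and 20.2 TPM in RD LPKO, against 5.36, 12.9 and 8.90 TPM in RD WT livers (1.04 ± 0.23, limma adjusted p = 0.00716). Idi1 had 237, 168 and 277 TPM in RD LPKO and 249, 218 and 224 TPM in RD LFPKO livers, against 83.3, 187 and 108 TPM in RD WT livers, with changes of 0.90 ± 0.25 and 0.95 ± 0.25. The Idi1 ranges of RD LPKO and RD WT livers overlapped, as did those of Cyp51 (0.70 ± 0.18 in LPKO, 0.74 ± 0.18 in LFPKO livers). Fdps (0.77 ± 0.25 in LPKO) and Hmgcs1 (1.03 ± 0.31 in LPKO) were not called, with RD WT libraries of 59.9, 179.9 and 115 TPM for Hmgcs1, against 249, 141 and 305 TPM in RD LPKO and 256, 155 and 184 TPM in RD LFPKO livers. Srebf2 and Scap had values of 0.12 ± 0.16 and 0.037 ± 0.20 in RD LPKO livers.

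**Figure D5:**
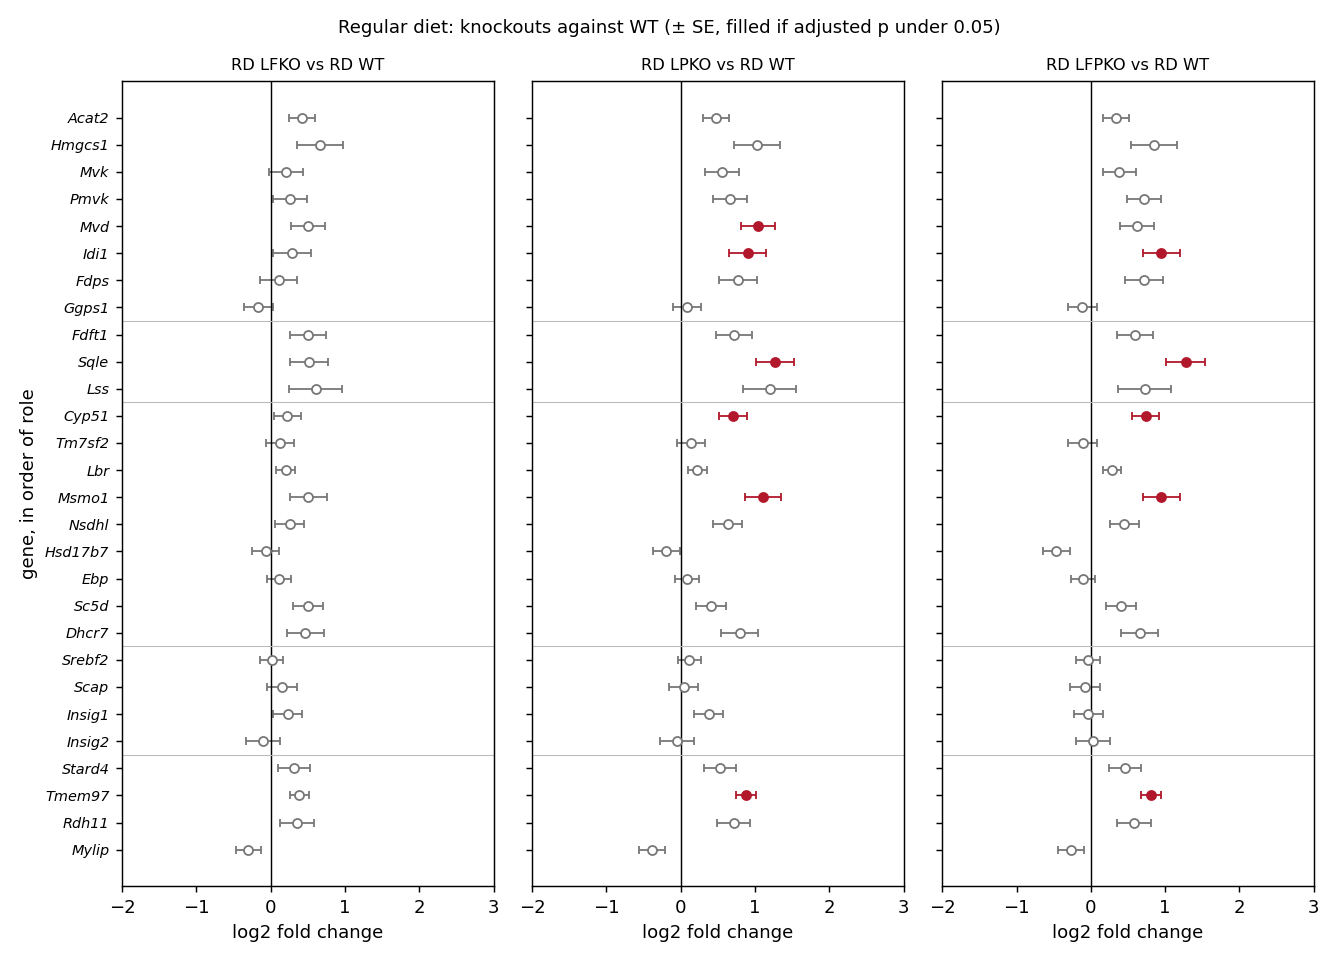
Log2 fold change ± SE of each member for RD LFKO, LPKO and LFPKO livers against RD WT livers, with filled points where the limma adjusted p is under 0.05. No point is filled for LFKO, 6 for LPKO and 5 for LFPKO livers, and the regulators Srebf2, Scap and Insig2 lie near 0 in all panels.

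The RD counts depended on single libraries. RD WT replicate 1 was the lowest library of its group for 26 of 28 members. Genes in general were also lower in that library. Its median-of-ratios factor was 0.980, against 1.14 and 1.15 for RD WT replicates 2 and 3. The share of all genes lowest in it was not counted. Without RD WT replicate 1, limma called 2 members in each of the LPKO and LFPKO comparisons. Without RD WT replicate 2 the counts were 13 and 9. The LPKO count was 3 without RD LPKO replicate 3, and the LFPKO count was 3 without RD WT replicate 3 and 2 without RD LFPKO replicate 1. With the compared groups alone 1, 1 and 2 members were called in LFKO, LPKO and LFPKO livers, and after median-of-ratios scaling 0, 15 and 9, where 3.74%, 9.45% and 12.9% of all genes were called. All 10 Kupffer cell markers had values below 0 in RD LPKO and RD LFPKO livers, with Cd163 called lower in RD LPKO (-1.01 ± 0.29) and RD LFPKO livers (-0.97 ± 0.29), and a summed level of 102.7 ± 17.8 TPM in RD LPKO and 111.6 ± 35.2 TPM in RD LFPKO, against 191 ± 51.8 TPM in RD WT livers. Of 6 tested immediate early genes, which respond to handling, Jun was called higher in RD LFKO livers (1.91 ± 0.34), where no member was called, and Jun and Atf3 in RD LPKO (2.11 ± 0.34 and 1.57 ± 0.33) and RD LFPKO livers (1.62 ± 0.34 and 1.29 ± 0.33). These genes summed to 134 ± 22.9 TPM in RD LFKO, 117 ± 28.2 TPM in RD LPKO and 66.4 ± 19.2 TPM in RD LFPKO, against 60.4 ± 13.5 TPM in RD WT livers. The clock gene Clock was called lower in RD LPKO and RD LFPKO livers (-0.62 ± 0.14 and -0.86 ± 0.14). The part of these genes in the results was not tested.

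No member passed the test between the RD double knockout and either single knockout. Limma called 0 members in RD LFPKO against RD LFKO livers (6 at an unadjusted p under 0.05, with 7 called with the 2 groups alone in the fit, 3 without Mup and mitochondrial transcripts and 1 after median-of-ratios scaling), where 5.08% of genes were called. It called 0 in RD LFPKO against RD LPKO livers (1 at an unadjusted p under 0.05), where 0.123% of genes were called. The departure from additivity on RD was called for 0 members (5 at an unadjusted p under 0.05), where 0.256% of genes were called, with a median of -0.38. These are misses of a threshold, and the ranges of the groups are given above.

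Whether a knockout difference itself depended on diet was tested as an interaction, the HFD difference from WT minus the RD difference from WT. For LPKO livers 5 members were called above 0, where 0.171% of all genes were called, 18 genes in all. Cyp51 was first (1.88 ± 0.26, limma adjusted p = 0.00538), followed by Nsdhl (1.80 ± 0.27, limma adjusted p = 0.00723), Fdps (2.15 ± 0.36, limma adjusted p = 0.0133), Idi1 (1.96 ± 0.36, limma adjusted p = 0.0323) and Sqle (1.88 ± 0.37, limma adjusted p = 0.0411). For these 5 genes the LPKO difference from WT was larger on the high-fat than on the regular diet, as the Cyp51 changes of 2.58 ± 0.18 on HFD and 0.70 ± 0.18 on RD show. The interaction of LFKO with diet was called for 0 members (16 at an unadjusted p under 0.05), where 0.00948% of genes were called, with a median of 0.67. That of LFPKO with diet was called for 0 members (11 at an unadjusted p under 0.05), where 0.0284% of genes were called, with a median of 0.33. The LPKO count of 5 was 11 without RD WT replicate 1, 10 without HFD LPKO replicate 3, 2 without RD LPKO replicate 1, HFD WT replicate 2 or HFD LPKO replicate 1, and 3 without RD WT replicate 2 or 3, RD LPKO replicate 2, HFD WT replicate 3 or HFD LPKO replicate 2. It was 9 after median-of-ratios scaling and 1 with the 4 groups alone, and Cyp51 was called under every alternative tried. The LFKO count was 6 without RD WT replicate 1, 1 without HFD WT replicate 3 and 4 without HFD LFKO replicate 1, and the LFPKO count was 3 without RD WT replicate 1 and 1 without RD LFPKO replicate 1.

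Across the 24 libraries the members rose and fell together, described here with no test since the libraries share groups. Over 378 pairs of members the median Pearson r of log2(TPM + 1) was 0.85, and 0.56 for deviations from the group means, so members also varied together between libraries of 1 group. The medians over pairs of other genes were not computed, so these values are not shown to be particular to the members. The closest pair was Sqle and Msmo1 (r = 0.99), followed by Idi1 and Cyp51 (r = 0.989). Ggps1, Scap, Insig2 and Mylip were the least alike, with median r to the other members of 0.31, 0.37, 0.57 and 0.15, while the remaining 24 had medians of 0.71 to 0.94. TPM of all genes in a library sum to a common total, so correlations also carry shifts of abundant transcripts.

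Other lists around the pathway were compared with the same fit. Of 11 tested genes of the SREBP1 branch and fatty acid synthesis, 7 were called lower on HFD in WT livers, where 30.8% of all genes were called, and 4 after median-of-ratios scaling, where 7.94% were. They included Scd1, the stearoyl-CoA desaturase (-4.16 ± 0.66, limma adjusted p = 0.000393), and Acss2, an acetyl-CoA synthetase (-1.64 ± 0.28, limma adjusted p = 0.000748), while Thrsp was called higher (1.58 ± 0.46). Scd1 averaged 562 ± 249.5 TPM in HFD LFKO, 776 ± 687 TPM in HFD LPKO and 237 ± 153 TPM in HFD LFPKO livers, against 102 ± 73.8 TPM in HFD WT livers (SD, n = 3). In HFD LFKO livers Scd1 (2.85 ± 0.66) and Me1 (1.71 ± 0.38) were called higher than in HFD WT livers, in HFD LPKO livers Acacb (1.96 ± 0.22), Acss2 (1.99 ± 0.28) and Scd1 (3.08 ± 0.66), and in HFD LFPKO livers Acacb (1.37 ± 0.22). Srebf1, which encodes SREBP1, was called lower in RD LPKO than in RD WT livers (-1.20 ± 0.33, limma adjusted p = 0.0366), where the value of Srebf2 is given above.

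Of 10 tested genes of sterol export, esterification and LXR, 3 were called lower in RD LPKO and 3 in RD LFPKO livers. In these comparisons 5.85% and 7.45% of all genes were called. Abcg8, one subunit of the exporter that sends cholesterol into bile, averaged 20.9 ± 0.620 TPM in RD LPKO and 27.0 ± 5.52 TPM in RD LFPKO, against 50.0 ± 5.57 TPM in RD WT livers (-1.21 ± 0.16 and -0.88 ± 0.16, limma adjusted p = 7.37e-05 and 0.00138). On HFD it averaged 34.9 ± 1.62 TPM in LPKO and 29.4 ± 7.59 TPM in LFPKO, against 53.3 ± 6.98 TPM in WT livers (-0.59 ± 0.16 and -0.86 ± 0.16, both called). Abcg5, its partner, was called lower in RD LPKO (-1.04 ± 0.21), RD LFPKO (-0.70 ± 0.21) and HFD LFPKO livers (-0.94 ± 0.21). Scarb1, the receptor for high-density lipoprotein, was called lower in RD LFKO (-0.56 ± 0.11), RD LFPKO (-0.72 ± 0.11) and HFD LFKO livers (-0.51 ± 0.11). Lipa, the lysosomal lipase that frees cholesterol from its esters, was called lower on HFD in WT livers (-1.29 ± 0.21) and higher in HFD LFKO than in HFD WT livers (1.03 ± 0.21). Npc2, which carries cholesterol out of the lysosome, moved likewise in these comparisons (-1.01 ± 0.15 and 0.54 ± 0.15) and was also called higher in HFD LPKO livers (0.69 ± 0.15).

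Of 12 genes of SREBP processing and turnover, Rnf139 and Erlin1 were called higher in RD LPKO (0.94 ± 0.12 and 0.71 ± 0.15) and in RD LFPKO livers (0.97 ± 0.12 and 0.88 ± 0.15). Both encode proteins of the endoplasmic reticulum with parts in the degradation of sterol regulators. In RD LPKO and RD LFPKO livers 5.85% and 7.45% of all genes were called. On HFD Sec23a (0.44 ± 0.11) was called higher in LFKO livers, limma called 0 in LPKO livers (6 at an unadjusted p under 0.05), and Erlin1 was called in LFPKO livers (0.58 ± 0.15). The shares of all genes called on HFD were 13.5%, 4.73% and 3.09% in LFKO, LPKO and LFPKO livers. The proteases that release SREBPs, Mbtps1 and Mbtps2, were not called in any knockout against WT. Of 10 genes on the branches from farnesyl diphosphate to prenylated proteins, ubiquinone and dolichol, 2 were called higher in HFD LFKO livers (Fnta, 0.44 ± 0.12, and Zmpste24, 0.37 ± 0.10). With 13.5% of all genes called there, this count lay near the background. Limma called 0 in HFD LPKO or HFD LFPKO livers (2 in LPKO and 0 in LFPKO livers at an unadjusted p under 0.05), where 21 and 15 of the 28 members were called.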

How the data were processed

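RNA from snap-frozen liver was extracted with Trizol and made into strand-marked polyadenylated libraries, per the labels' protocols. The authors deposited 1 table of gene-level TPM for 24 libraries, made with kallisto on the genome build GRCm38 (mm10), per the submitters' processing notes. The kallisto version and annotation were not given in the sources used here. Since TPM are shares of a library, a rise of abundant transcripts lowers all others, and the depth behind a value is unknown.

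The members and lists were chosen with earlier results of these data known. A single row without a gene name, 0.0104% to 0.0250% of TPM, was left out, and 0 other value columns were unused. Genes with a mean of at least 1 TPM (10551) were tested on log2(TPM + 1) with limma 3.58.1 in R 4.3.3, in 1 fit of 8 group means over 24 libraries with 16 residual degrees of freedom and a trend in the prior variance. Each of 19 comparisons had its p-values adjusted by Benjamini-Hochberg over all tested genes, with a threshold of 0.05. The fit was tested on simulated data. Foxo1 and Ppara were named to check the labels, and every member was named. Full statistics were given first to up to 4 called members with the smallest adjusted p, and of other lists up to 4 genes with the smallest adjusted p and those against the direction of the list. Further genes were picked with their values known. The fit was repeated with median-of-ratios scaling, with TPM rescaled without Mup and mitochondrial transcripts, with a pseudocount of 0.1, without the filter, with a minimum mean of 5 TPM, with a block for the replicate number, with the compared groups alone, and without each library. Promoter windows were read from RefSeq on GRCm38.p6. Python 3.11.15 and matplotlib 3.10.9 drew the figures.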

Additional observations from a re-analysis of the deposited data

Results flagged for a closer look

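The difference of HFD LPKO from HFD WT livers and that of RD LPKO from RD WT livers were themselves different by limma's interaction test for 5 members. The interactions on the log2 scale were 1.96 for Idi1, 2.15 for Fdps, 1.88 for Sqle, 1.88 for Cyp51 and 1.80 for Nsdhl.

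The effect of one deletion differed with and without the other deletion on the high-fat diet for 22 members, by limma's test of the departure from additivity. In the mevalonate stretch the departures were -1.85 for Acat2, -2.51 for Hmgcs1, -1.40 for Mvk, -2.46 for Pmvk, -1.69 for Mvd, -2.90 for Idi1 and -2.97 for Fdps. From farnesyl diphosphate to lanosterol they were -1.65 for Fdft1, -2.75 for Sqle and -1.80 for Lss. After lanosterol they were -2.58 for Cyp51, -2.14 for Tm7sf2, -2.55 for Msmo1, -2.91 for Nsdhl, -1.36 for Hsd17b7, -0.93 for Ebp, -1.40 for Sc5d and -1.87 for Dhcr7. Among the regulators and other targets they were -1.18 for Srebf2, -1.73 for Insig1, -1.17 for Tmem97 and -2.25 for Rdh11. All comparisons of HFD knockouts and both of these tests share the 3 HFD WT libraries.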

How the results depend on the processing

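No call of a member changed its sign under any alternative: of 2522 alternative values of 182 calls, 2134 kept the call and 388 lost it. Calls held under every alternative for 14 members in HFD LFKO, 18 in HFD LPKO and 11 in HFD LFPKO livers, for 9, 3, 14 and 20 on HFD against RD in LFKO, LPKO, LFPKO and WT livers, and for 19 in the HFD departure from additivity. The cause of the changes that follow was not tested. With median-of-ratios scaling, members called numbered 15 in RD LPKO (6 as reported) and 9 in RD LFPKO livers (5), 1 in RD LFPKO against RD LFKO (0) and 2 in HFD LFPKO against HFD LFKO livers (4), 3 for diet in LPKO livers (11), and 9 and 1 for LPKO and LFPKO by diet (5 and 0). Without Mup and mitochondrial transcripts they numbered 14 in RD LPKO livers, 3 in RD LFPKO against RD LFKO livers, 10, 3 and 14 for diet in LFKO, LPKO and LFPKO livers (19, 11 and 23), and 9 and 1 for LPKO and LFPKO by diet. With the compared groups alone they numbered 1, 1 and 2 in RD LFKO (0), RD LPKO and RD LFPKO livers, 7 in RD LFPKO against RD LFKO, 0 in HFD LFPKO against HFD LFKO and 0 against HFD LPKO livers (5), 6 for diet in LPKO livers and 1 for LPKO by diet. With no filter they numbered 1 in HFD LFPKO against HFD LFKO, 2 against HFD LPKO, 11 and 7 for diet in LFKO and LPKO livers, and 3 for LPKO by diet. A mean of at least 5 TPM gave 2 for LFKO by diet (0), and a pseudocount of 0.1 gave 9 for LPKO by diet.

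With 1 library left out, members called ranged from 2 to 13 in RD LPKO, 2 to 9 in RD LFPKO, 14 to 22 in HFD LFKO, 19 to 23 in HFD LPKO and 11 to 13 in HFD LFPKO livers against WT. They ranged from 0 to 5 in HFD LFPKO against HFD LFKO and 0 to 10 against HFD LPKO livers. For diet they ranged from 9 to 17 in LFKO, 3 to 18 in LPKO, 17 to 23 in LFPKO and 23 to 26 in WT livers, and for the interactions from 0 to 6 for LFKO, 2 to 11 for LPKO and 0 to 3 for LFPKO. The HFD departure from additivity gave 20 to 23. A block for the replicate number gave 3 members for LPKO by diet and moved no other members' count by over 1.5 times. Correlations between the deviations of same-numbered libraries ran from -0.23 to 0.387. Every pair was over 0.1 in 0 of 14 comparisons, so the number was not treated as a pairing. In HFD LFPKO against HFD LFKO livers the correlations were 0.319, 0.093 and 0.387, and a pairing of these 2 groups alone was not tested.

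Scaling moved the median change of all genes by over 0.1 in 9 comparisons, most for diet in WT livers (0.020 after scaling, -0.29 as deposited). It moved the count of all genes called to 836 for diet in WT livers (3250 as deposited), 432 in HFD LFKO (1420), 563 in HFD LFPKO (326), 394 in RD LFKO (176), 995 in RD LPKO (617) and 1359 in RD LFPKO livers (786), 861 in RD LFPKO against RD LFKO (536) and 129 in HFD LFPKO against HFD LPKO livers (37). The counts were 681 and 1387 for diet in LPKO and LFPKO livers (1910 and 2773), 49 and 22 for LPKO and LFPKO by diet (18 and 3) and 627 for the HFD departure (1179). With the compared groups alone they were 444 in RD LFKO, 168 in HFD LFKO, 173 in HFD LPKO (499), 177 in HFD LFPKO, 283 in HFD LFPKO against HFD LFKO (1117), 5 in HFD LFPKO against HFD LPKO, 451 and 1256 for diet in LFKO (997) and LFPKO livers, 133 for the HFD departure and 78 for the RD departure (27). With 1 library left out, all genes called ranged from 217 to 372 in HFD LFPKO livers against WT, from 335 to 1377, 587 to 1695, 1305 to 2910 and 921 to 3585 for diet in LFKO, LPKO, LFPKO and WT livers, from 75 to 172, 312 to 500.0 and 418 to 640.0 in RD LFKO, RD LPKO and RD LFPKO livers against WT, and from 423 to 2612 for the HFD departure.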
